A study of Mus musculus with 2 samples.

Results

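The cells described here are Lepr and Ptn reticular fibroblasts, fibroblastic cells of mouse lymph nodes chosen by raw UMI counts. A UMI stands for 1 RNA molecule caught from a cell. A barcode entered the set with at least 500 detected genes, at most 10% mitochondrial UMIs, 0 UMIs of Pecam1 and Prox1, at least 3 UMIs of Dcn and Col3a1 together, at least 2 UMIs of Lepr and Ptn together, 0 UMIs of Tnfsf11 and Pi16, and fewer than 3 UMIs of Ccl19. These gates took 140 cells of 11454 past the cell filter in the SAH library and 258 of 11157 in the sham library, 398 of 22611 in all. The groups are mandibular lymph nodes of mice 24 h after subarachnoid haemorrhage (SAH, bleeding into the space around the brain), made by infusing the animal's own blood, and nodes taken 24 h after a sham operation. Each group is 1 library from the pooled nodes of 20 mice, so animals cannot be told apart, no difference below has a replicate check, and every comparison is between these libraries. Both groups went through the same selection, with removal of CD45-bearing cells and retention on beads of cells that took up a CD31 or podoplanin antibody. Strain, age and sex are not given in the labels used here.

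Reticular fibroblasts build the collagen network of the lymph node, wrap its conduits, and make the chemokines and survival factors that place and keep lymphocytes. Lepr encodes the leptin receptor, a cytokine receptor of the IL-6 receptor family that signals through JAK2 and STAT3, and in mouse bone marrow it marks stromal cells rich in Cxcl12. Ptn encodes pleiotrophin, a secreted heparin-binding growth factor that binds syndecans and the receptor phosphatase Ptprz1.

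The SAH library held 13766 barcodes with 78497486 UMIs and the sham library 13952 barcodes with 72860197 UMIs, and 76 barcodes occur in both. The cells of the set had a median of 4782.5 UMIs in the SAH library, against 3939.5 UMIs in the sham library, and their summed UMIs were 701813 and 1059986. Median mitochondrial shares were 4.87% in SAH cells and 4.93% in sham cells. Levels below are in CPM, from the UMIs of a gene summed over the cells of the set and divided by their summed total, and a ratio is the SAH level over the sham level. Bracketed ranges are exact 95% intervals that cover counting error only, since cells of 1 library are not replicates.

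The samples are labelled as lymphatic endothelial cells, and these cells are not endothelial by their markers. The 8 fibroblast markers summed to 25276 CPM in SAH cells and 24441 CPM in sham cells, and all 8 were detected in both libraries. Dcn and Col3a1 are among them and are required by the gates, so their part of this sum is no independent support. Together they had a median of 100 UMIs per SAH cell and 77 per sham cell. Prox1 and Pecam1 were at 0 by the gates. The lymphatic endothelial list summed to 1449 CPM in SAH cells and 1917 CPM in sham cells, nearly all of it Ccl21a, which reticular cells also make. The blood endothelial list summed to 351 CPM and 308 CPM, against 11041 CPM and 10167 CPM in the blood endothelial gate of each library.

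The label was matched only in part by its other markers. Inmt, an enzyme that methylates indolamines, was seen in 80.6% of SAH cells and 79.3% of sham cells after thinning each cell to 2000 UMIs. It was seen in 2.73% and 0.655% of blood endothelial cells thinned the same way. Before thinning, the median depths of blood endothelial cells were 4603.5 and 4638 UMIs. Lum, which encodes the collagen-binding proteoglycan lumican, was seen in 56.0% of thinned SAH cells and 72.3% of thinned sham cells. Saa3 was seen in 64 of 140 SAH cells and 4 of 258 sham cells, and its level was higher in the marginal reticular and T-zone reticular gates of the same libraries, so it does not mark these cells.

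The gates let in some cells with genes of other lineages. In the SAH library 0 of 140 cells, and in the sham library 10 of 258, had 3 or more UMIs of the epithelial genes Krt5, Krt8, Krt14, Krt18 and Epcam together. Schwann or neural markers reached 3 UMIs in 2 SAH cells and 6 sham cells, myeloid markers in 1 SAH cell and 1 sham cell, B cell markers other than Cd74 in 1 and 1, and T or NK markers in 0 and 1. In all these were 4 SAH cells and 16 sham cells, called the cells of other lineages below. The mural (pericyte and smooth muscle), blood endothelial and salivary gland lists were not used for this tally. Mural markers reached 3 UMIs in 101 SAH cells and 155 sham cells, at 1896.5 CPM and 1647 CPM summed. In the mural gate of each library they summed to 24406 CPM and 22105 CPM. Blood endothelial markers reached 3 UMIs in 25 and 28 cells, and salivary gland markers in 18 and 37. Scrublet called 2 of the SAH cells and 5 of the sham cells doublets, and these were kept in the main values. For some of the genes and lists below, values without the cells of other lineages are given beside the main ones. Cells with mural, blood endothelial or salivary gland markers alone stay in those values.

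The set was a smaller part of the fibroblastic cells in the SAH library. It made up 8.58% [7.27, 10.1] of 1631 fibroblastic cells there, against 16.8% [15.0, 18.8] of 1532 in the sham library. The T-zone reticular gate, with 3 or more Ccl19 UMIs, held 56.4% [54.0, 58.8] of fibroblastic cells in the SAH library and 38.3% [35.9, 40.8] in the sham library. Since the gates count UMIs, a deeper cell passes the Ccl19 limit more easily. When every cell was thinned to 2000 UMIs before the gates were read, the set held 17.8% [16.1, 19.5] of 1997 fibroblastic cells in the SAH library and 23.2% [21.2, 25.3] of 1669 in the sham library. The difference kept its direction but was smaller, and the part of depth in it was not tested further. Thinning also lowers the counts that the other gates read. The set then held 355 SAH cells and 387 sham cells, against 140 and 258 in the main values. The marginal reticular gate of the SAH library held 168 cells, against 307. Values given below with gates read after thinning are therefore from a set that includes other cells.

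**Figure D1:**
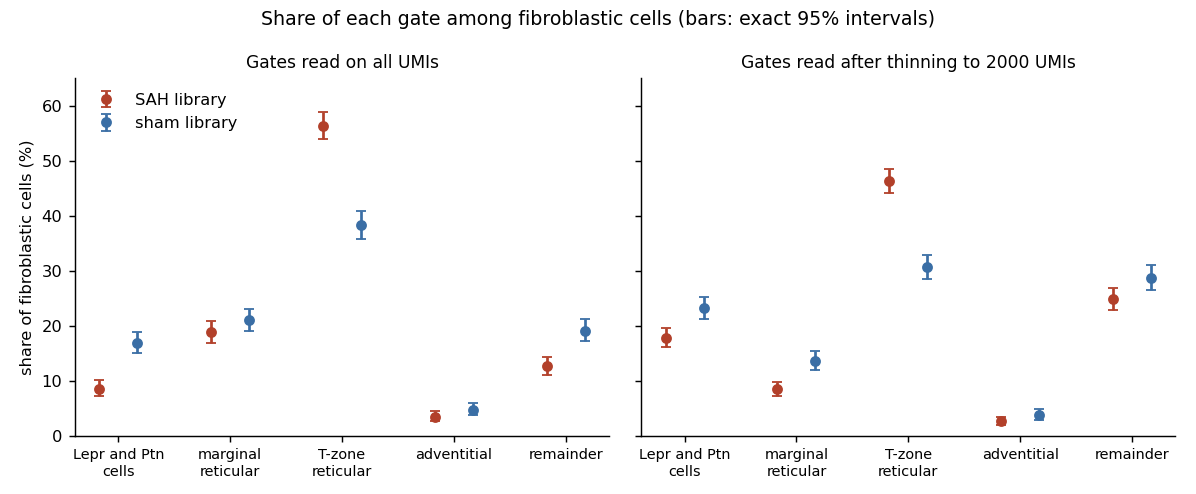
Share of each fibroblastic gate among the fibroblastic cells of each library (percent, y axis), with gates read on all UMIs (left) and after thinning each cell to 2000 UMIs (right). Points are libraries and bars exact 95% intervals; the Lepr and Ptn cells lie lower in the SAH library in both panels, 8.58% against 16.8% on all UMIs and 17.8% against 23.2% after thinning.

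Many cells lay near the limits that define the set. In the SAH library 23 cells had exactly 2 UMIs of Lepr and Ptn together and 45 otherwise eligible cells had 1, while in the sham library these numbers were 50 and 69. At the Ccl19 limit, 40 SAH cells had 2 UMIs and were kept and 45 had 3 and were not, against 69 and 52 sham cells. The set therefore has no gap around its limits.

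The genes that chose the cells are given as a description. Lepr (chr4:101717404-101815352, GRCm38) stood at 835 CPM in SAH cells and 748 CPM in sham cells, a ratio of 1.12 [1.00, 1.24]. Ptn (chr6:36714929-36810220) stood at 638 CPM in SAH cells and 1256 CPM in sham cells, a ratio of 0.508 [0.456, 0.566]. The lower Ptn level in SAH was seen outside the set as well, with 400 CPM against 644 CPM in the marginal reticular gate and 199 CPM against 429 CPM in the T-zone reticular gate. Neither of these gates reads Ptn. Both genes were also well above 0 in these neighbours, so the gate separates degrees of expression. The set held 100 SAH cells and 162 sham cells with UMIs of both genes, 30 and 36 with Lepr UMIs alone, and 10 and 60 with Ptn UMIs alone.

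Against all other fibroblastic cells of the same library, the cells had more RNA of several secreted factors and metabolic enzymes. These ratios are a description, because the gates cut the cells by expression. Cyp2e1, a cytochrome P450 that oxidises small molecules, was 3.56 times [2.74, 4.58] as high as in the other fibroblastic cells in SAH and 2.41 times [1.77, 3.26] in sham. Penk, the precursor of enkephalin opioid peptides, was 3.90 times as high in SAH and 1.92 times in sham, and stood at 197 CPM and 169 CPM. Fgf10, a growth factor of epithelial budding, was 3.69 and 2.03 times as high. Stc1, the secreted glycoprotein stanniocalcin, was 2.22 times as high in each library and stood at 254 CPM in SAH cells and 433 CPM in sham cells, a log2 ratio of -0.77 that was -0.13 with equal weight for cells with UMIs of Lepr alone, Ptn alone and both. Scara5, a ferritin-binding scavenger receptor, was 2.53 and 2.05 times as high. The other genes named by the same ranking were Adamtsl1, Slc6a6, Col6a6, Sned1, Inmt, Emp1, Cyp2f2, Fbn2, Negr1 and Hspa1b, with ratios to the other fibroblastic cells between 1.51 and 3.85.

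Other genes were lower in the set than in other fibroblastic cells. Ccl21a, a chemokine that draws T cells and dendritic cells through CCR7, stood at 1405 CPM in SAH cells and 1892 CPM in sham cells, which was 0.0839 and 0.160 times the level in other fibroblastic cells. Bst1, a surface enzyme of T-zone reticular cells, was 0.221 and 0.190 times as high. Slc7a11, the cystine and glutamate exchanger, was 0.0348 and 0.0395 times as high. Thbs4, Stmn2, Ly6h, Ifi205, Serpina3g, Serpinb6b and Saa3 were also lower in both libraries. The gate limits Ccl19, so these low levels are no result independent of the rule. Penk was higher still in the fibroblastic cells left in no gate, at 409 CPM in SAH and 337 CPM in sham, so its level was not highest in the set.

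**Figure D2:**
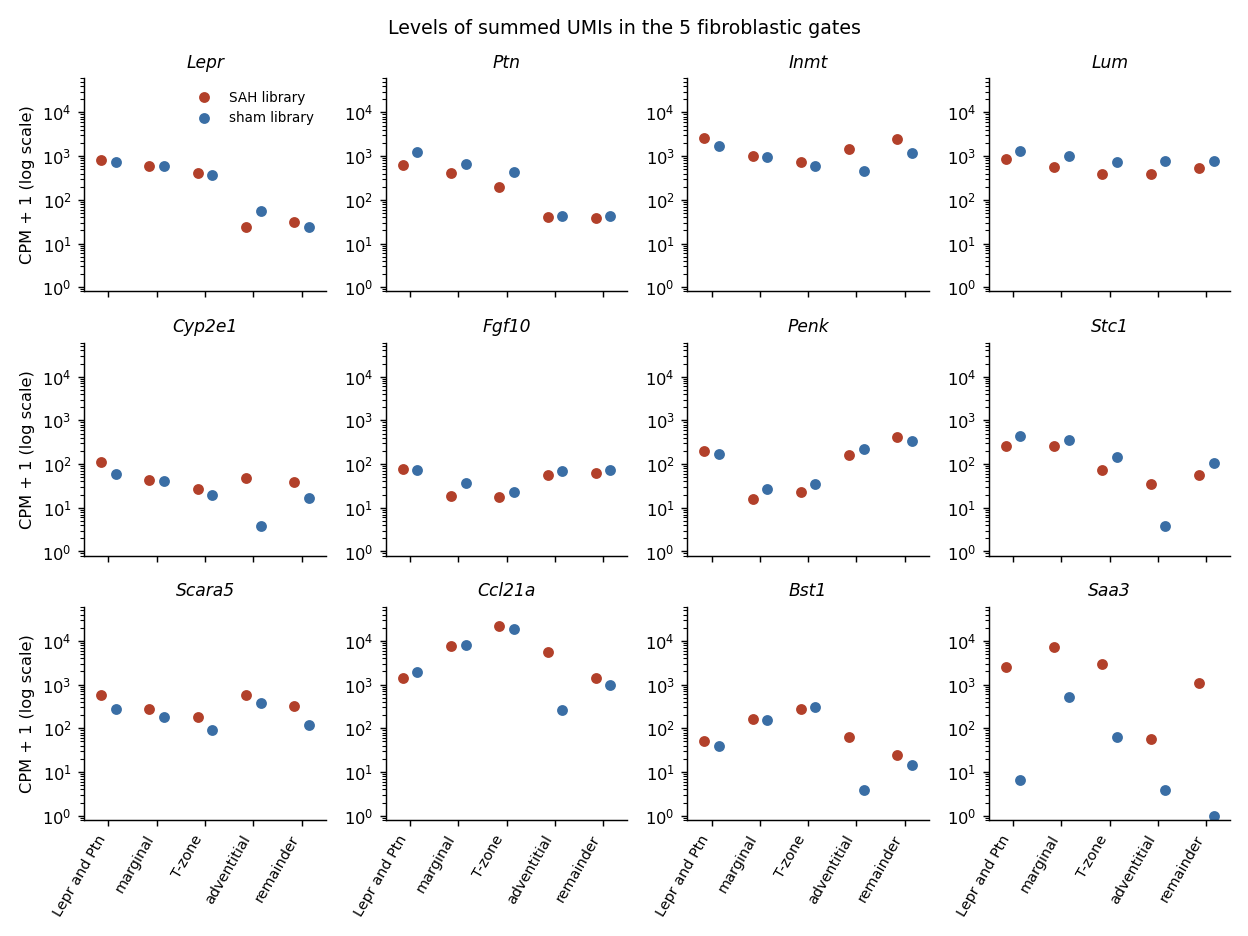
CPM + 1 (y axis, log scale) of 12 genes in the 5 fibroblastic gates, 1 point per library, with SAH left of sham. Lepr and Ptn grade down over the marginal and T-zone reticular gates, Ccl21a is highest in the T-zone reticular gate, and Saa3 in the Lepr and Ptn cells is at 2573 CPM in SAH and 5.66 CPM in sham.

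Between the libraries, 8928 genes reached 10 CPM in at least 1 of them and were compared, leaving out the 9 genes that the gates read. Of these, 15.9% were at least 1.5-fold higher in SAH cells and 16.9% at least 1.5-fold lower. With a counting interval that also lay beyond 1 the shares were 6.68% and 6.98%. These shares of all genes are the ones to set beside the counts of each list below. The median log2 ratio was -0.03, so the libraries were centred on each other.

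The acute phase genes had the highest median ratio of the 26 lists. Saa3 (chr7:46711998-46715700, minus strand), a serum amyloid that mouse tissues make outside the liver, had 1806 UMIs in 64 SAH cells and 6 UMIs in 4 sham cells. Its level was 2573 CPM in SAH cells and 5.66 CPM in sham cells, a ratio of 455 [208, 1240]. The SAH cells were far from uniform. The median among the 64 cells with a UMI was 5 UMIs, 19 had at least 10, 9 had at least 50 and the highest had 397, and the 5 highest cells held 56.1% of all UMIs. After thinning, Saa3 was seen in 32.1% [24.3, 40.7] of SAH cells and 1.24% [0.256, 3.58] of sham cells, against 7.06% and 0.366% of blood endothelial cells. The SAH share was above that of blood endothelial cells, and the interval of the sham share includes that of sham blood endothelial cells. Saa3 was also higher in SAH in the neighbouring gates, at 7135 CPM against 514 CPM in marginal reticular cells and 2960 CPM against 62.7 CPM in T-zone reticular cells. Its log2 ratio of 8.83 was 4.67 when the gates were read after thinning. The Saa3 ratio was 417 [191, 1139] without the cells of other lineages.

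Of 9 acute phase genes compared, 6 were at least 1.5-fold higher in SAH cells and 1 lower, against 15.9% and 16.9% of all genes. The same 6 of 9 had intervals above 1, against 6.68% of all genes, and the median log2 ratio was 1.28. That median was 1.24 without the cells of other lineages. Lcn2, lipocalin 2, which binds bacterial siderophores, stood at 214 CPM in SAH cells and 14.2 CPM in sham cells, a ratio of 15.1 [8.87, 27.7]. It was seen in 17.9% of thinned SAH cells and 0.826% of thinned sham cells, against 9.85% and 1.62% of blood endothelial cells. The sham share was not above that of blood endothelial cells. Without the cells of other lineages the Lcn2 ratio was 52.0, and its log2 ratio of 3.92 was 2.07 without cells with a UMI of Ptprc, Cd79a, Cd3e, Rgs5 or Cdh5. Serpina3n, a secreted serine protease inhibitor, was seen in 62.7% of thinned SAH cells and 18.6% of thinned sham cells, against 16.3% and 5.38% of blood endothelial cells. It stood at 801 CPM in SAH cells and 120 CPM in sham cells, a ratio of 6.68 [5.50, 8.17]. The Serpina3n ratio was 6.27 [5.15, 7.69] without the cells of other lineages. In marginal reticular and T-zone reticular cells it was 3.14 and 1.98. Saa1 had 15 UMIs in SAH cells and 0 in sham cells, at least 7.55-fold higher against a floor of 3 counts over the group. Cp, the copper-carrying ferroxidase ceruloplasmin, had a ratio of 1.88 [1.66, 2.14]. Under a stricter cell filter (1000 or more genes per cell and no more than 5% mitochondrial RNA) Cp was below the limit, at a log2 ratio of 0.54. The gene that was lower, Ptx3, had 0 UMIs in SAH cells and 23 UMIs in 2 sham cells.

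The promoters of Saa3 and Lcn2 are shown because these genes had the highest ratios among the acute phase genes with UMIs in both libraries. Each sequence is 250 bases before to 50 bases after the RefSeq start in GRCm38.p6, on the gene's strand, 5′ to 3′, and capitals mark matches of the motifs searched. The Saa3 window is chr7:46715627-46715926 and the Lcn2 window chr2:32387690-32387989, both on the minus strand.
Saa3: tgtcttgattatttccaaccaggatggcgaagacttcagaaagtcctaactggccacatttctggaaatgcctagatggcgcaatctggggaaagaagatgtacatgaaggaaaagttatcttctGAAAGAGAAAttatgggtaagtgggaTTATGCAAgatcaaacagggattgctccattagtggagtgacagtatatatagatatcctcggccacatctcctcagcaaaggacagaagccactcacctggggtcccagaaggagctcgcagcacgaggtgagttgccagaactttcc
Lcn2: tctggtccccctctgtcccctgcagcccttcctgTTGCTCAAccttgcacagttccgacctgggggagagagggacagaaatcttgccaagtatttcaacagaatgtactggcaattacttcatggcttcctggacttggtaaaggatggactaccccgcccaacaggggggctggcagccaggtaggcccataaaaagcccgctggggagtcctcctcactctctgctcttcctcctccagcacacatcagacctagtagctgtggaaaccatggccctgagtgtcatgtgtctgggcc
Each strand was searched for TTGCNNAA (C/EBP type), GGGANNTTCC (NF-kB type), TTCNNNGAA (STAT type) and GAAANNGAAA (interferon response type). The Saa3 window held 1 C/EBP type match, TTATGCAA on the opposite strand, and 1 interferon response type match, GAAAGAGAAA. The Lcn2 window held 1 C/EBP type match, TTGCTCAA. No match to these letters was found in the windows of Serpina3n or Irf7. Of 32817 promoters of the same length, 10.8% held the C/EBP type, 1.47% the NF-kB type, 8.29% the STAT type and 3.43% the interferon response type. A match is a run of letters and not a shown binding site.

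**Figure D3:**
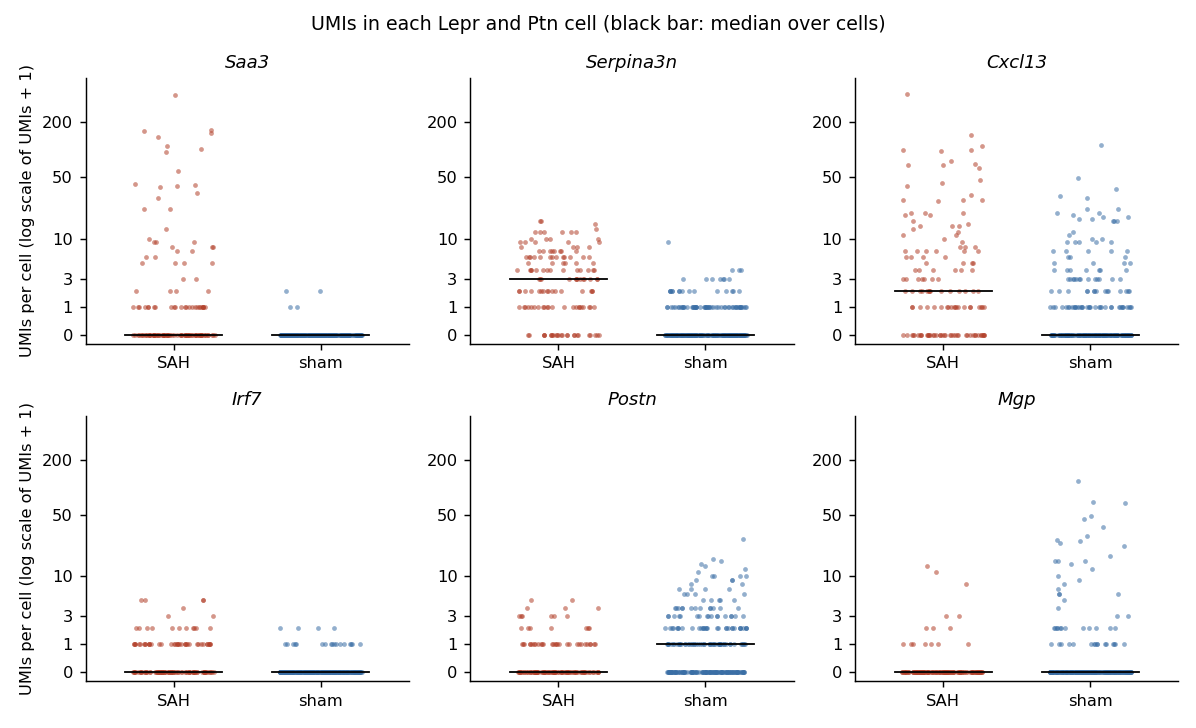
UMIs of 6 genes in each Lepr and Ptn cell (y axis, log scale of UMIs + 1), SAH left of sham, with a black bar at the median over 140 SAH cells and 258 sham cells. Saa3 is spread up to 397 UMIs in SAH cells and reaches at most 2 in sham cells, Serpina3n is shifted over most SAH cells, and the highest Mgp counts are in sham cells.

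Interferon-stimulated genes were higher in SAH cells as a list. Of 30 compared, 23 were at least 1.5-fold higher and 1 lower, against 15.9% and 16.9% of all genes. With an interval above 1, 20 of the 30 were higher, against 6.68% of all genes, and the median log2 ratio was 0.90. That median was 0.93 without the cells of other lineages. Irf7, the transcription factor that amplifies type I interferon, stood at 128 CPM in SAH cells and 23.6 CPM in sham cells. This was a ratio of 5.44 [3.46, 8.84], with UMIs in 56 of 140 and 21 of 258 cells. After thinning, Irf7 was seen in 32 of 134 SAH cells and 12 of 242 sham cells. Its ratio was 5.30 [3.28, 8.90] without the cells of other lineages. Ifi27l2a, a small interferon-induced membrane protein, stood at 1121 CPM in SAH cells and 312 CPM in sham cells, a ratio of 3.59 [3.15, 4.10]. The Ifi27l2a ratio was 9.84 [8.55, 11.4] in marginal reticular and 7.85 [7.29, 8.45] in T-zone reticular cells, and the difference between gates was not tested. In the set its log2 ratio of 1.84 was 2.68 with the gates read after thinning and 0.77 without cells with a UMI of Ptprc, Cd79a, Cd3e, Rgs5 or Cdh5. The Ifi27l2a ratio in the set was 5.01 [4.29, 5.87] without the cells of other lineages. For Irf7 the ratios in marginal reticular and T-zone reticular cells were 12.9 [7.55, 24.0] and 7.62 [5.82, 10.1]. Rsad2, the antiviral enzyme viperin, had 17 UMIs in SAH cells and 2 UMIs in sham cells, a ratio of 12.8 [3.05, 115]. Ifi44 had a ratio of 6.04 [2.86, 14.3], which was 9.99 without the cells of other lineages.

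Not every gene of the interferon list followed. Cxcl10, a chemokine for activated T cells, was the 1 lower gene, at 296 CPM in SAH cells and 447 CPM in sham cells, and 5 sham cells held 77.4% of its sham UMIs. The related Cxcl9 was higher, at 171 CPM in SAH cells and 66.0 CPM in sham cells, with most of its UMIs in 5 cells of each library. With equal weight for Lepr-only, Ptn-only and double-positive cells the Cxcl9 log2 ratio of 1.37 was 0.39, below the limit, and the Cxcl10 log2 ratio of -0.59 was 0.93 without cells with a UMI of Ptprc, Cd79a, Cd3e, Rgs5 or Cdh5. Both were singled out after their values were seen.

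Antigen presentation genes were higher in smaller numbers, and complement genes lay nearer to the 15.9% higher and 16.9% lower of all genes. Of 19 MHC class I and peptide loading genes, 8 were at least 1.5-fold higher and 1 lower, with a median log2 ratio of 0.40. H2-T23, the nonclassical class I molecule Qa-1 seen by NK cell receptors, stood at 693 CPM in SAH cells and 163 CPM in sham cells, a ratio of 4.24 [3.56, 5.08]. Its ratios in marginal reticular and T-zone reticular cells were 4.20 and 3.88. H2-Q4 and H2-Q6 had ratios of 1.97 [1.49, 2.60] and 1.94 [1.40, 2.68], but genes of this family are near copies whose reads may be split, and the H2-Q6 log2 ratio of 0.95 was 0.55 with the gates read after thinning. Of 14 complement genes compared, 4 were higher and 2 lower, with a median log2 ratio of 0.39 that was 0.11 with the gates read after thinning. C4b, a component of the classical pathway, stood at 1563 CPM in SAH cells and 888 CPM in sham cells, a ratio of 1.76 [1.61, 1.92], and was seen in 137 of 140 and 225 of 258 cells. Cfb, the alternative pathway factor B, had a ratio of 2.39 [1.61, 3.59]. C3, the central component, was below the 1.5-fold limit at 1.44 [1.39, 1.49].

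Chemokines were split. Of 15 compared, 3 were past 1.5-fold upward and 7 downward, against 15.9% and 16.9% of all genes, with a median log2 ratio of -0.54. Cxcl13, which draws B cells into follicles, stood at 2867 CPM in SAH cells and 731 CPM in sham cells, a ratio of 3.92 [3.61, 4.27]. It was seen in 99 of 140 and 109 of 258 cells, and 5 cells held 42.6% and 33.5% of its UMIs. After thinning, Cxcl13 was seen in 76 of 134 SAH cells and 81 of 242 sham cells. Its ratio was 3.76 [3.45, 4.10] without the cells of other lineages. Its log2 ratio of 1.97 was -0.14 when cells with a UMI of Ptprc, Cd79a, Cd3e, Rgs5 or Cdh5 were left out. The call did not hold there, and that setting drops most cells of the set in both libraries. Ccl2 and Ccl7, which attract monocytes, were lower. Ccl2 stood at 78.4 CPM in SAH cells and 399 CPM in sham cells, a ratio of 0.196 [0.145, 0.261], and Ccl7 at 61.3 CPM and 277 CPM, a ratio of 0.221 [0.157, 0.305]. The Ccl7 log2 ratio of -2.18 was -0.77 without cells with a UMI of Ptprc, Cd79a, Cd3e, Rgs5 or Cdh5. Ccl2 came from few cells in both libraries, 16 SAH cells and 27 sham cells, with 67.3% and 68.3% of its UMIs in 5 cells. Among thinned sham cells Ccl7 was seen in 66.7% of the 21 cells with Ccl2 and in 5.88% of the cells without it. Cxcl1, a neutrophil chemokine, stood at 898 CPM in SAH cells and 1309 CPM in sham cells, a ratio of 0.686 [0.623, 0.754]. Ccl20 had 1 UMI in SAH cells and 26 UMIs in sham cells.

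Niche factors were mostly within 1.5-fold. Of 13 leukocyte survival and niche genes, 0 were at least 1.5-fold higher and 2 lower, against 15.9% and 16.9% of all genes. Their median log2 ratio was -0.23. Cxcl12, which retains cells that bear CXCR4, stood at 7260 CPM in SAH cells and 8502 CPM in sham cells, a ratio of 0.854 [0.825, 0.884]. Without thinning it was seen in 99.3% and 97.3% of cells. Igf1 was at 227 CPM in SAH cells and 321 CPM in sham cells, a ratio of 0.706 [0.581, 0.855]. Il34, a ligand of the macrophage receptor CSF1R, had 5 UMIs in SAH cells and 23 UMIs in sham cells, a log2 ratio of -1.61 that was -0.42 under the stricter cell filter.

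Other genes of the leptin receptor and pleiotrophin pathways were compared as lists. Of 19 genes of leptin receptor and IL-6 family signalling compared, 0 were higher and 0 lower at 1.5-fold, against 15.9% and 16.9% of all genes compared. The 4 with the largest differences were Il6st, the shared receptor chain gp130, at a ratio of 1.47 [1.18, 1.84], Il6ra at 1.44 [0.754, 2.75], and the phosphatases Ptpn2 at 0.694 [0.366, 1.26] and Ptpn1 at 0.701 [0.446, 1.08]. Of 11 genes of the pleiotrophin and midkine axis other than Ptn, 1 was higher and 4 were lower, all with intervals beyond 1. Mdk, the other ligand of the family, stood at 78.4 CPM in SAH cells and 125 CPM in sham cells, a ratio of 0.629 [0.451, 0.868]. Sdc4, a heparan sulphate proteoglycan that binds both ligands, had a ratio of 0.644 [0.514, 0.803]. Ptprz1 and Sdc1 had 1 and 3 UMIs in SAH cells and 19 and 18 UMIs in sham cells. Lrp1, an endocytic receptor, was the higher gene, at 589 CPM in SAH cells and 391 CPM in sham cells, a ratio of 1.51 [1.31, 1.73]. The calls of Mdk, Sdc4 and Lrp1 were lost under several settings, with log2 ratios as near to 0 as -0.29, -0.42 and 0.40.

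Extracellular matrix genes differed by class. Of 13 matricellular and adhesive glycoproteins, 0 were at least 1.5-fold higher and 7 lower, against 15.9% and 16.9% of all genes. The same 7 of 13 had intervals below 1, against 6.98% of all genes, and the median log2 ratio was -0.99. That median was -0.85 without the cells of other lineages. Postn, periostin, which binds collagen and integrins, stood at 118 CPM in SAH cells and 459 CPM in sham cells, a ratio of 0.258 [0.202, 0.326], with UMIs in 47 of 140 and 142 of 258 cells. Its ratios in marginal reticular and T-zone reticular cells were 0.248 and 0.278. Ctgf, which signals at the cell surface through integrins, had 7 UMIs in SAH cells and 45 UMIs in sham cells, a ratio of 0.235 [0.0894, 0.525]. Its relative Nov had 12 UMIs in SAH cells and 68 UMIs in sham cells, a ratio of 0.267 [0.131, 0.496]. Smoc2 had 0 UMIs in SAH cells and 25 UMIs in 9 sham cells, at most 0.181 of the sham level against a floor of 3 counts over the group.

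Mgp, a calcification inhibitor bound in the matrix, had a ratio of 0.110 [0.0810, 0.146], at 72.7 CPM in SAH cells and 661 CPM in sham cells. It was seen in 15 of 140 SAH cells and 56 of 258 sham cells, and 5 sham cells held 49.1% of its sham UMIs. In the fibroblastic cells of no gate Mgp stood at 1628 CPM in SAH and 2829 CPM in sham, and in T-zone reticular cells its ratio was 1.31. Some basement membrane genes of the conduit were higher. Col4a1 and Col4a2, the main chains of collagen IV, had ratios of 2.05 [1.78, 2.35] and 2.75 [2.29, 3.31]. Lama5, a laminin chain, had a ratio of 2.80 [1.72, 4.65] and Col15a1 0.220 [0.0904, 0.464]. Over the 17 basement membrane genes 4 were higher and 2 lower, against 15.9% and 16.9% of all genes. With intervals beyond 1 the numbers were 4 and 1, against 6.68% and 6.98% of all genes. The median log2 ratio of the list was 0.02 and was below 0 under some settings. The blood endothelial gate holds more Col4a1 and Col4a2 RNA than these cells (up to 1271 CPM and 693 CPM), and the endothelial gene Egfl7 was also higher in SAH cells, at 81.2 CPM against 29.3 CPM. The Egfl7 log2 ratio of 1.47 was 0.55 under the stricter cell filter, while that of Col4a2 was 1.46 and 1.32 or more under every setting tried. The part of free endothelial RNA in this was not tested.

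The fibrillar collagen list had 3 of 20 genes higher and 6 lower, with a median log2 ratio of -0.14. For this and the other lists of this paragraph, the shares of all genes were 15.9% and 16.9%. Intervals lay beyond 1 for 1 of the higher and 6 of the lower fibrillar collagen genes, against 6.68% and 6.98% of all genes. Col1a1 stood at 1281 CPM in SAH cells and 1828 CPM in sham cells, a ratio of 0.701 [0.647, 0.759], while Col1a2 was at 1740 CPM and 1432 CPM, a ratio of 1.22 [1.13, 1.31]. These encode partner chains of collagen I. Lower genes were Loxl1, an enzyme that crosslinks elastin and collagen, at 0.232 [0.0953, 0.493], and Col14a1, a collagen on the fibril surface, at 0.364 [0.212, 0.599]. Lum stood at 875 CPM in SAH cells and 1312 CPM in sham cells, a ratio of 0.667 [0.605, 0.734], at the 1.5-fold limit and not counted as lower, and Bgn, biglycan, at 1241 CPM and 749 CPM, a ratio of 1.66 [1.503, 1.83]. The Bgn log2 ratio of 0.73 was 0.58 with every cell weighted equally. Among 14 elastic fibre genes 2 were higher and 3 lower. Of 16 matrix proteases and inhibitors, 5 were higher and 4 lower, among them Timp3, a metalloproteinase inhibitor held in the matrix, at 0.448 [0.338, 0.587].

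**Figure D4:**
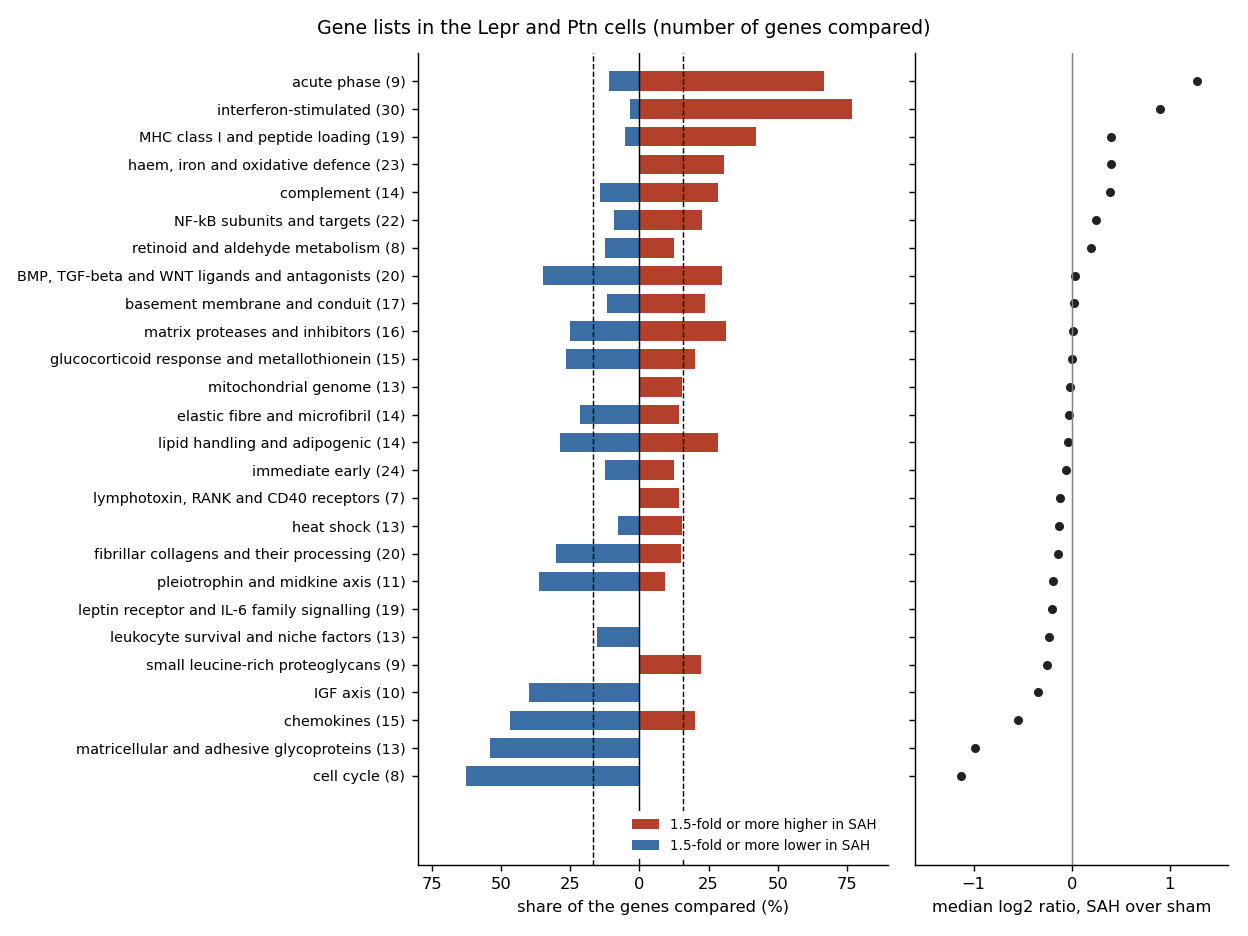
Share of the genes compared in each of 26 lists that were at least 1.5-fold higher (right, red) or lower (left, blue) in SAH cells, in percent, and the median log2 ratio of SAH over sham (right panel). Dashed lines mark the 15.9% and 16.9% of all genes compared; the acute phase and interferon-stimulated lists lie furthest above and the matricellular and cell cycle lists furthest below.

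Signalling and metabolic lists had smaller median log2 ratios than the acute phase and interferon-stimulated lists. Of all genes, 15.9% were higher and 16.9% lower, or 6.68% and 6.98% with intervals beyond 1. Of 24 immediate early genes, 3 were higher and 3 lower, 2 and 2 of them with intervals beyond 1. The median log2 ratio was -0.06. Atf3, a stress-induced factor, had a ratio of 1.86 [1.57, 2.22], or a log2 ratio of 0.90, which was 0.33 with the gates read after thinning. Of 22 NF-kB subunits and targets, 5 were higher and 2 lower, 4 and 2 of them with intervals beyond 1. The median log2 ratio was 0.25. Without the cells of other lineages 4 were higher and 3 lower and the median was -0.05. Ptgs2, the prostaglandin synthase COX-2, stood at 105 CPM in SAH cells and 44.3 CPM in sham cells, a ratio of 2.38 [1.63, 3.50], on 19 and 21 cells, but its log2 ratio of 1.25 was 0.34 under the stricter cell filter and 0.30 with the gates read after thinning. Heat shock genes had 2 of 13 higher and 1 lower, all with intervals beyond 1. Hspb1, a small chaperone, had a ratio of 2.14 [1.68, 2.73], but its log2 ratio of 1.10 was -0.08 with the gates read after thinning and 1.96 without the cells of other lineages.

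Of 23 haem, iron and oxidative defence genes, 7 were higher and 0 lower, against 15.9% and 16.9% of all genes. With intervals beyond 1, 6 were higher and 0 lower, against 6.68% and 6.98% of all genes. Their median log2 ratio was 0.40. Gpx3, a secreted glutathione peroxidase, stood at 680 CPM in SAH cells and 260 CPM in sham cells, a ratio of 2.61 [2.25, 3.04], and Gstp1, a glutathione transferase, had a ratio of 2.32 [1.56, 3.49] and a log2 ratio of 0.44 once cells were thinned. Of 15 glucocorticoid response and metallothionein genes, 3 were higher and 4 lower, 1 and 4 of them with intervals beyond 1. Angptl4, an inhibitor of lipoprotein lipase, stood at 192 CPM in SAH cells and 57.5 CPM in sham cells, a ratio of 3.34 [2.45, 4.60], while Errfi1, a feedback inhibitor of the EGF receptor, was at 586 CPM and 1192 CPM, a ratio of 0.491 [0.438, 0.549]. Apod, a lipid-binding lipocalin, had a ratio of 3.24 [2.67, 3.95], which was 2.50 [2.04, 3.08] without the cells of other lineages. It belongs to a lipid handling list of 14 genes with 4 higher and 4 lower, all with intervals beyond 1. In the IGF list 4 of 10 were lower and 0 higher, against 16.9% and 15.9% of all genes. Of the 4 lower genes, 3 had intervals below 1. Igfbp5, an IGF-binding protein held in the matrix, stood at 218 CPM in SAH cells and 673 CPM in sham cells, a ratio of 0.324 [0.270, 0.387]. With equal weight for Lepr-only, Ptn-only and double-positive cells its log2 ratio of -1.62 was -0.54.

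The remaining lists were mixed, and are set beside the 15.9% higher and 16.9% lower of all genes. BMP, TGF-beta and WNT genes had 6 of 20 higher and 7 lower, 3 and 2 of them with intervals beyond 1, and 6 higher and 3 lower without the cells of other lineages. The retinoid list had 1 of 8 higher and 1 lower. Inmt was the higher gene, at 2593 CPM in SAH cells and 1696 CPM in sham cells, a ratio of 1.53 [1.43, 1.63], which was 1.40 without the cells of other lineages and a log2 ratio of 0.02 with the gates read after thinning. Cyp26b1, which degrades retinoic acid, was at 0.520 [0.334, 0.790]. Lymphotoxin, RANK and CD40 receptor genes had 1 of 7 higher and 0 lower. Of the 13 genes of the mitochondrial genome 2 were higher, mt-Co1 was at 1.35 [1.30, 1.40] and mt-Nd4 at 0.763 [0.723, 0.805]. Cell cycle genes had 5 of 8 lower and 0 higher, but these rest on few cells, such as Top2a with 0 UMIs in SAH cells and 15 UMIs in 2 sham cells. Without the cells of other lineages 2 of 6 cell cycle genes were lower.

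**Figure D5:**
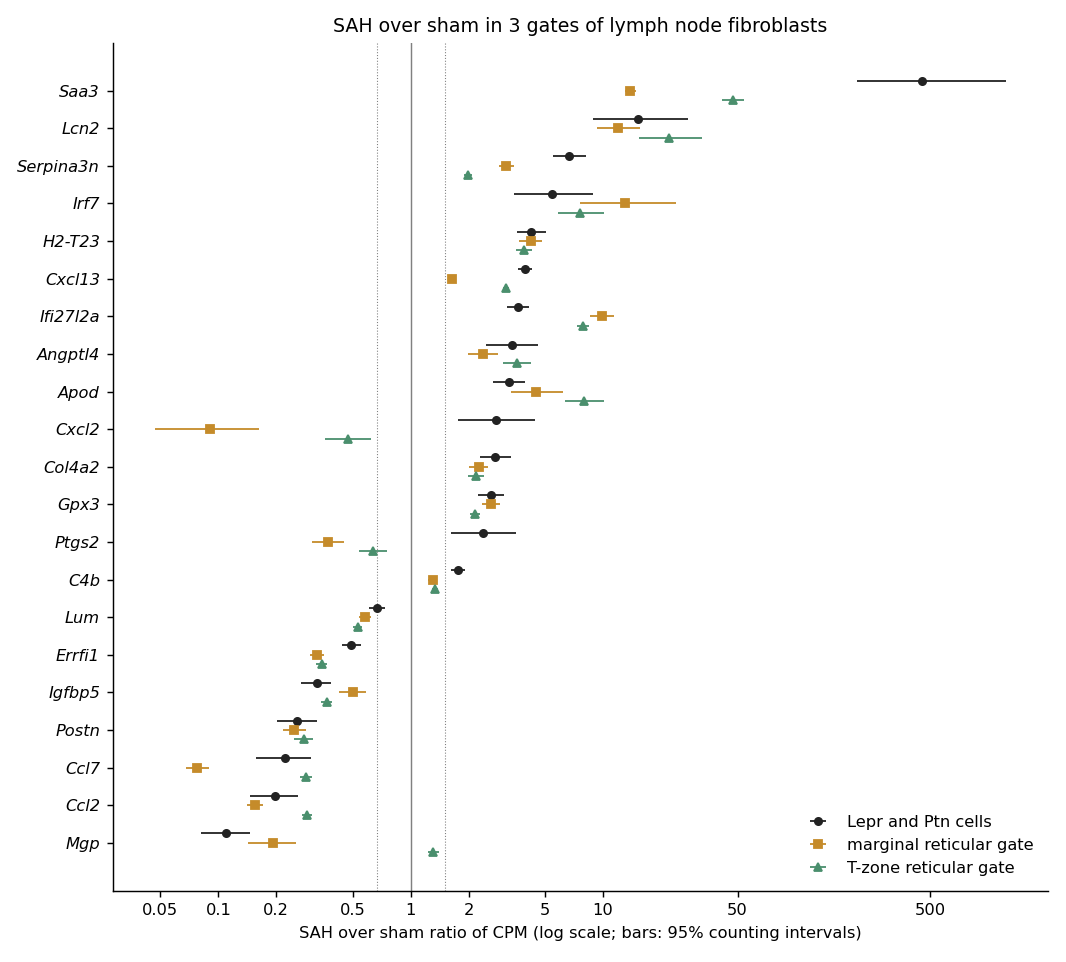
SAH over sham ratio of CPM (x axis, log scale) for genes named in the text, in the Lepr and Ptn cells and in the marginal reticular and T-zone reticular gates, with 95% counting intervals and dotted lines at 1.5-fold either way. Most genes lie on the same side of 1 in all 3 gates; Cxcl2, Ptgs2 and Mgp do not, and Cxcl2 in the Lepr and Ptn cells is at 2.78 with 94.7% of its SAH UMIs in 5 cells.

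Ranked by size among 3017 genes of at least 50 CPM, the 12 highest in SAH cells were Saa3, Il1b, Prg4, S100a8, Lcn2, Serpina3n, Ifi44, Irf7, Lgals3bp, H2-T23, Cxcl13 and Ifi27l2a. Il1b and S100a8 came nearly all from single cells. Il1b had 39 UMIs in SAH cells, 38 of them in 1 cell, and 0 in sham cells, and S100a8, a neutrophil protein, had 48 UMIs in 1 SAH cell. Prg4, the joint lubricant lubricin, had 45 UMIs in 15 SAH cells and 1 UMI in sham cells, a ratio of 68.0 [11.6, 2743]. Lgals3bp, a secreted galectin-binding glycoprotein, had a ratio of 4.47 [3.41, 5.92]. It was seen in 41.0% of thinned SAH cells and 11.98% of thinned sham cells, against 26.4% and 14.8% of blood endothelial cells. The sham share was not above that of blood endothelial cells.

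The 12 lowest were Slpi, Krt18, Krt14, Krt8, Epcam, Krt5, Mgp, Ccl25, Fabp5, Fgl2, Serpine2 and Ccl2, and most of them rest on a few sham cells. Slpi had 1666 UMIs in sham cells, of which 1663 were in 1 cell. The keratins and Epcam had 0 UMIs in SAH cells and between 53 and 171 UMIs in 6 to 10 sham cells, and were at 0 in both libraries once cells of other lineages were left out. Ccl25, a thymus and gut chemokine, had 52 of 56 sham UMIs in 1 cell, and the Fabp5 ratio of 0.126 was 1.64 [0.678, 4.04] without those cells. Mgp, Serpine2 and Ccl2 had ratios of 0.109, 0.132 and 0.181 without them. H2-Aa, H2-Eb1, H2-Ab1 and Egfl7 were more than 10 times higher in another gate and were set apart. The class II genes H2-Aa, H2-Eb1 and H2-Ab1 had ratios of 0.148, 0.175 and 0.318 over all cells and 1.46 [0.740, 2.89], 1.32 [0.666, 2.60] and 1.39 [0.883, 2.18] without the cells of other lineages.

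Within the set, the cells with Lepr UMIs alone and those with Ptn UMIs alone differed in other genes, given as a description since both splits read the same cells. Ccl21a was at 3630 CPM in Lepr-only and 443 CPM in Ptn-only cells of the SAH library, and at 8101 CPM and 339 CPM in the sham library. Mfge8, a bridge to dying cells, was 5.44 times and Epas1, a hypoxia-inducible factor, 3.40 times as high in Lepr-only cells in SAH, and 3.85 and 4.60 times in sham. Apod was the reverse, at 167 CPM in Lepr-only and 1282 CPM in Ptn-only cells in SAH and at 40.6 CPM and 319 CPM in sham. The SAH values of Ptn-only cells rest on 10 cells. Cxcl12 was 1.16 [1.01, 1.33] times as high in Lepr-only as in Ptn-only cells in SAH and 2.43 [2.24, 2.65] times in sham.

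Genes seen with Saa3 in the same cells are given as a description. After thinning, Lcn2 was seen in 37.2% of the 43 SAH cells with Saa3 and 8.79% of those without it, and Ptn in 79.1% and 53.9%. Irf7 was seen in 11.6% of SAH cells with Saa3 and 29.7% of those without. Serpina3n was seen in 62.8% and 62.6%. Saa3 was seen in 8 of the 46 SAH cells with Apod (17.4%) and 39.8% of those without it, and in 4.35% and 0.913% of the sham cells, and neither difference was tested.

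Leiden clustering of the 398 cells without integration gave 8 clusters, of which 5 drew at least 80% of their cells from 1 library, so most clusters may stand for a library. The largest, 70 SAH cells and 15 sham cells, and the cluster of 26 SAH cells and 30 sham cells both had Saa3 among their leading genes. A cluster of 3 SAH cells and 56 sham cells had Slpi, Serpine2, Mgp, Igfbp6, Col15a1 and Loxl1 among its leading genes. Stc1 and Cxcl1 led a cluster of 9 SAH cells and 68 sham cells, and Cyp2f2 and Cyp26b1 were among those of 1 and 43. Several of these genes were lower in SAH cells above, and the part of cluster make-up in that was not tested. A cluster of 9 sham cells was led by keratins, and all 9 were among the cells with genes of other lineages. A cluster of 2 SAH cells and 6 sham cells was led by Gfra3, Gatm and Kcna1, and all 8 were among them too. No cluster was given a cell type name.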

How the data were processed

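Single-cell RNA was measured in 1 SAH and 1 sham library. The deposited matrices hold whole UMI counts, unnormalized, over 27998 gene entries, made by the authors with Cell Ranger 5.0 and STAR on mm10, per the submitters' processing notes, which also name Seurat 3.0.2. Per the labels' protocols UMIs were added at the 5′ end. Whether introns were counted is not given in the sources used here. Entries that share a symbol were summed, leaving 27933 symbols.

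The cells, gene lists and gates were chosen with earlier results of these data known. UMIs were summed over the cells of a gate in each library, and ratios have exact conditional binomial 95% intervals. Shares have exact Clopper-Pearson 95% intervals. PCR reads were counted by UMI, and intervals and floors of 3 counts cover counting error only. No test was made, as each group has 1 library. Genes that reached 10 CPM in either library were compared, and a difference was called at 1.5-fold. Shares of cells with a UMI in percent, other than those of Cxcl12, used cells thinned to 2000 UMIs. Thinning left out 6 SAH cells and 16 sham cells of the set. Counts of cells used all UMIs unless thinning is named, and there the deeper SAH cells show a UMI more easily. The calculations were tested on simulated data.

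Neighbouring gates needed the same Pecam1, Prox1 and Dcn with Col3a1 limits. The marginal reticular gate had at least 1 Tnfsf11 UMI, the adventitial gate at least 1 Pi16 UMI and 0 of Tnfsf11, and the T-zone reticular gate at least 3 Ccl19 UMIs and 0 of both. The fibroblastic cells in none of these gates and outside the set had fewer than 2 UMIs of Lepr and Ptn.

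Named genes were the 12 highest and 12 lowest ratios (0.5 UMIs added for ranking) at 50 CPM or more, the 15 highest and 10 lowest against other fibroblastic cells, 4 set apart as over 10 times higher in another gate, the markers, and the 4 largest differences of each list. The rankings skipped Xist, Y-linked and predicted genes, and those of ribosomes, mitochondria, haemoglobin, antibodies and T-cell receptors. Single members of short counts, C3, Cp, Cxcl1, Cxcl9, Cxcl10, Cxcl12, Col1a1, Col1a2 and the genes of the Lepr-only and Ptn-only split were added after their values were seen. Alternatives changed the cell filter, doublets, gates, scaling, cell weight, thinning, composition, low-value filter and fold. Promoters came from RefSeq tables of GRCm38.p6 and gene positions from the GENCODE annotation of GRCm38, the assembly of mm10. Scrublet ran in scanpy 1.11.5 at an expected rate of 0.1, with Python 3.11.15, numpy 2.4.6, scipy 1.17.1 and igraph 0.11.9. Clusters used 1500 variable genes, 20 components, 15 neighbours and resolution 0.8.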

Additional observations from a re-analysis of the deposited data

Results flagged for a closer look

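The results here are genes whose SAH over sham ratio lay past 1.5-fold one way in the Lepr and Ptn cells and the other way in a neighbouring gate. The difference between gates was not tested.

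Cxcl2, a neutrophil chemokine, had a ratio of 2.777 in the Lepr and Ptn cells, 0.4728 in T-zone reticular cells and 0.09096 in marginal reticular cells. In the SAH library 5 of the Lepr and Ptn cells held 94.7% of its UMIs, and its ratio was 1.07 without the cells of other lineages. Ptgs2 had a ratio of 2.378 in the Lepr and Ptn cells, 0.6335 in T-zone reticular cells and 0.3723 in marginal reticular cells. Nfkbiz, a nuclear regulator of NF-kB targets, had a ratio of 1.679 in the Lepr and Ptn cells and 0.5987 in marginal reticular cells, and its UMIs were spread over 89 SAH cells and 127 sham cells.

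Cd74, the class II invariant chain, had a ratio of 0.37 in the Lepr and Ptn cells and 1.507 in marginal reticular cells, and H2-Ab1 had ratios of 0.3183 and 1.65. Without the cells of other lineages the Lepr and Ptn ratios were 2.65 for Cd74 and 1.39 for H2-Ab1. Igfbp6, an IGF-binding protein, had a ratio of 0.4585 in the Lepr and Ptn cells, on 6 SAH cells and 17 sham cells, and 2.124 in T-zone reticular cells.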

How the results depend on the processing

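Results were recomputed under up to 16 other settings, 14 planned and 2 (gates read after thinning, and cells of other lineages left out) chosen after seeing the data. Gene counts had all 16, gene lists 14, single genes at most 13 and the shares of cells 7. Of 75 named genes past 1.5-fold, 46 kept their call under every setting that gave a value, 21 higher and 25 lower in SAH cells, among them Saa3, Lcn2, Serpina3n, Irf7, Ifi27l2a, H2-T23, Angptl4, Apod, Gpx3, Col4a1, Col4a2, Mgp, Postn and Ccl2. A setting that left at most 3 UMIs in each library gave no value. With every cell weighted equally, or equal weight for Lepr-only, Ptn-only and double-positive cells, a gene at 0 in 1 library also gave none. Each of these 2 settings had a value for 65 of the 75 genes. A setting without a value could not end a call. Calls counted as kept include Il1b on 7 settings, Krt5, Krt8, Krt14 and Krt18 on 10 each, Epcam on 9, and Ptx3 and Top2a on 6 each. A kept call is not a kept size. Among the named genes past 1.5-fold that had a value, ratios moved by over 1.5 times for 35 of 73 with gates read after thinning. The numbers were 33 of 70 without cells with a UMI of Ptprc, Cd79a, Cd3e, Rgs5 or Cdh5, 27 of 69 with 1 UMI each of Lepr and Ptn, and 0 of 75 under TMM scaling. For the results below, the cause was not tested unless the setting itself keeps fewer cells or genes. The set is small and cells came from 1 library per group, so genes of under 50 CPM rest on few UMIs. No paired analysis was possible because each group has 1 library.

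Genes called higher numbered 2387 without cells with a UMI of Ptprc, Cd79a, Cd3e, Rgs5 or Cdh5, 914 with gates read after thinning, 2128 with each cell thinned, 346 at 50 CPM, 3307 with no filter and 528 at 2-fold, against 1416. Genes called lower numbered 2397 without those cells, 357 at 50 CPM, 3699 with no filter and 563 at 2-fold, against 1512. The set made up 0.916% of SAH cells under a stricter cell filter. With 3 UMIs of Lepr and Ptn it was 1.021% of SAH and 1.864% of sham cells, with 1 UMI of each gene 0.8731% and 1.452%, without cells with a UMI of the 5 genes above 0.3754% and 0.9501%, and with gates read after thinning 3.394% and 3.819%. It was the smaller in SAH in each case.

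With gates read after thinning, median log2 ratios were 3.254 for acute phase genes, -0.8425 for chemokines and -0.5143 for immediate early genes, and single genes reversed to 0.6907 for Cd74, -0.7725 for Cxcl2, 0.2139 for H2-Ab1, -0.07845 for Hspb1 and -0.1439 for Nfkbiz. Without cells with a UMI of those 5 genes, elastic fibre genes were at -0.4415, cell cycle genes reversed to 0.04493, Cxcl10 to 0.9306 and Cxcl13 to -0.1388. With 1 UMI each of Lepr and Ptn, matricellular genes were at -0.3371, and Ccl25 reversed to 1.377, Cd74 to 0.8118, Fabp5 to 0.5997, H2-Ab1 to 0.3239, H2-Eb1 to 0.02121 and Igfbp6 to 0.2704. Without the cells of other lineages, Ccl25 reversed to 0.4725, Cd74 to 1.405, Fabp5 to 0.7135, H2-Aa to 0.5465, H2-Ab1 to 0.4725 and H2-Eb1 to 0.3985. The lipid list was at 0.1602 without predicted doublets, 0.09755 with 3 UMIs of Lepr and Ptn, 0.1414 under TMM scaling and 0.1432 on totals without mitochondrial and ribosomal genes.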
